A study of Mus musculus with 62 samples.

Results

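The genes described here are 10 genes of the integrated stress response and the endoplasmic reticulum (ER) stress response, Atf4, Ddit3, Atf3, Trib3, Chac1, Asns, Fgf21, Gdf15, Hspa5 and Xbp1. They were chosen by name among the 47643 genes of an RNA-seq table of mouse diaphragm, and each was found in it. The diaphragm, the main muscle of breathing, came from 62 female mice. The sample labels give an age of 2 months for each mouse, whichever the week. The published methods give 2 months as the age of the mice when purchased, so mice sampled at later weeks were older. Cachectic mice (CAC) carried a melanoma xenograft that causes cachexia, the wasting of muscle and fat in cancer, non-cachectic mice (NCAC) carried a melanoma xenograft that does not, and control mice (Con) were mock injected. Each group was sampled at 2, 4, 6 and 8 weeks after implantation, with 5 mice in each of 11 conditions and 7 cachectic mice at 8 weeks. The design text names the mice as NCI Ath/nude, athymic mice that lack mature T cells but keep macrophages, neutrophils and B cells, whereas the sample labels give the strain C57BL6/J. Each tumor group carried 1 xenograft of human melanoma implanted in the flank, so the capacity to cause cachexia and any other difference between the tumors cannot be told apart.

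The integrated stress response starts when one of several kinases phosphorylates the translation factor eIF2 alpha, which slows protein synthesis in general while the mRNA of the transcription factor ATF4 is translated more. ATF4 then raises genes of amino acid synthesis and transport, and, together with its targets CHOP (the product of Ddit3), ATF3 and TRIB3, genes of the later stress response. FGF21 and GDF15 are hormones that stressed tissues, muscle among them, can release. In the ER stress response, unfolded proteins in the ER activate the sensors PERK, which is an eIF2 alpha kinase, IRE1, which splices the Xbp1 mRNA, and ATF6, and the chaperone BiP (the product of Hspa5) is raised. Gene-level values show neither the translation of Atf4 nor the splicing of Xbp1.

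Asns and Xbp1 were the members that differed between groups. Both were higher in cachectic than in control mice and in cachectic than in non-cachectic mice at 6 and at 8 weeks, by 1.43 to 1.97 times on the scale of TPM + 1. Atf4 and Chac1 had higher values in at least 4 of 5 cachectic mice at 6 weeks but did not pass the test over all genes, Ddit3 had lower means in cachectic mice and did not pass it either, and Fgf21 and Gdf15 were at or close to 0 in every mouse.

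A short sequence that ATF4 binds together with C/EBP proteins, the C/EBP-ATF composite element, was searched for as TGATGNAA, on both strands, in the RefSeq promoters of GRCm38.p6 (250 bases before to 50 bases after each start). It was present in 3.97% of 32851 promoters and, before the start, in those of Asns, Chac1, Atf3 and Fgf21. The ER stress response element, which ATF6 binds with NF-Y, was present in 0.119% of the promoters, Hspa5 among them. These stretches are shown because the genes that share an element differed in what was measured, and they are printed 5′ to 3′ on the strand of the gene, with the matched letters in capitals.
Asns (chr6:7693214-7693243, minus strand): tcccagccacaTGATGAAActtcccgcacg
Chac1 (chr2:119351019-119351086, plus strand): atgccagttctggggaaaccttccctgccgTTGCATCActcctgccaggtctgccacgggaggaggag
Atf3 (chr1:191183406-191183473, minus strand): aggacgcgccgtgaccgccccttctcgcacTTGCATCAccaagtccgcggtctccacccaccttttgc
Fgf21 (chr7:45615592-45615659, minus strand): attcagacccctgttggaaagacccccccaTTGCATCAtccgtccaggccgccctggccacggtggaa
Hspa5 (chr2:34772020-34772048, plus strand): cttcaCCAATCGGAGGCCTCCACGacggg
The match of Asns lay 23 to 16 bases before the start and on the strand of the gene. Those of Chac1 (193 to 186 bases), Atf3 (110 to 103) and Fgf21 (139 to 132) lay on the other strand and had the same letters in each. The match of Hspa5 lay 65 to 47 bases before the start. Starts here are those of RefSeq, whereas the gene positions given below are from GENCODE M21. By those positions the stretches of Asns, Atf3 and Hspa5 lie inside the gene. In Trib3 the composite element was found 15 to 22 bases after the start. No match to either element was found in these windows of Atf4, Ddit3, Xbp1 or the 2 promoters of Gdf15, and the cAMP response element (TGACGTCA), present in 1.79% of promoters, was not found in any member. The 3 motifs do not overlap in these promoters.

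Expression was given as TPM, a measure scaled for gene length and for the total of each library, so levels can be compared between genes. Across the 62 mice the median level was 159 TPM for Atf4, 112 TPM for Hspa5, 43.3 TPM for Xbp1, 24.5 TPM for Chac1 and 22.7 TPM for Ddit3. Atf3, Asns and Trib3 were lower, with medians of 6.65, 3.25 and 2.26 TPM. The medians of Gdf15 and Fgf21 were 0.155 and 0 TPM. The depth in reads is unknown because the values are not counts, and counting errors could not be computed.

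Differences were tested with limma on log2(TPM + 1) in 13578 genes with 1 TPM or more in 5 or more mice, among them 8 of the 10 members. A gene was called higher or lower when its p-value was under 0.05 after Benjamini-Hochberg adjustment over these genes. On this scale a low gene's fold change is smaller than the ratio of its TPM values. In whole diaphragm, fewer cells of a type and less RNA per cell cannot be told apart.

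All 10 markers of myofibers were detected in every condition, with summed levels between 38602 and 91902 TPM per mouse. Between 15069 and 19057 genes were above 0 per mouse, and 4 libraries (at 2 weeks replicates 3 and 4 of the cachectic and replicate 5 of the non-cachectic mice, at 8 weeks replicate 3 of the cachectic mice) had at most 16389, against at least 17909 in the other 58. The share of TPM from mitochondrial genes was 54.4% to 61.5% in the 4 and 32.5% to 50.1% in the 58. At 6 weeks it was 34.3% to 44.9% in cachectic, 44.9% to 47.9% in control and 43.2% to 47.9% in non-cachectic mice. At 8 weeks it was 32.5% to 41.6% in cachectic mice other than replicate 3 and 40.9% to 49.3% in control mice. The TPM of a library add up to a fixed total, so a lower mitochondrial share leaves more for other genes. Its part in the fold changes was not tested. The summed level of 12 liver markers was 9336 to 25626 TPM in control replicates 2, 4 and 5 at 2 weeks and 5784 TPM in cachectic replicate 5 at 6 weeks, and at most 3621 TPM in the other mice.

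**Figure D1:**
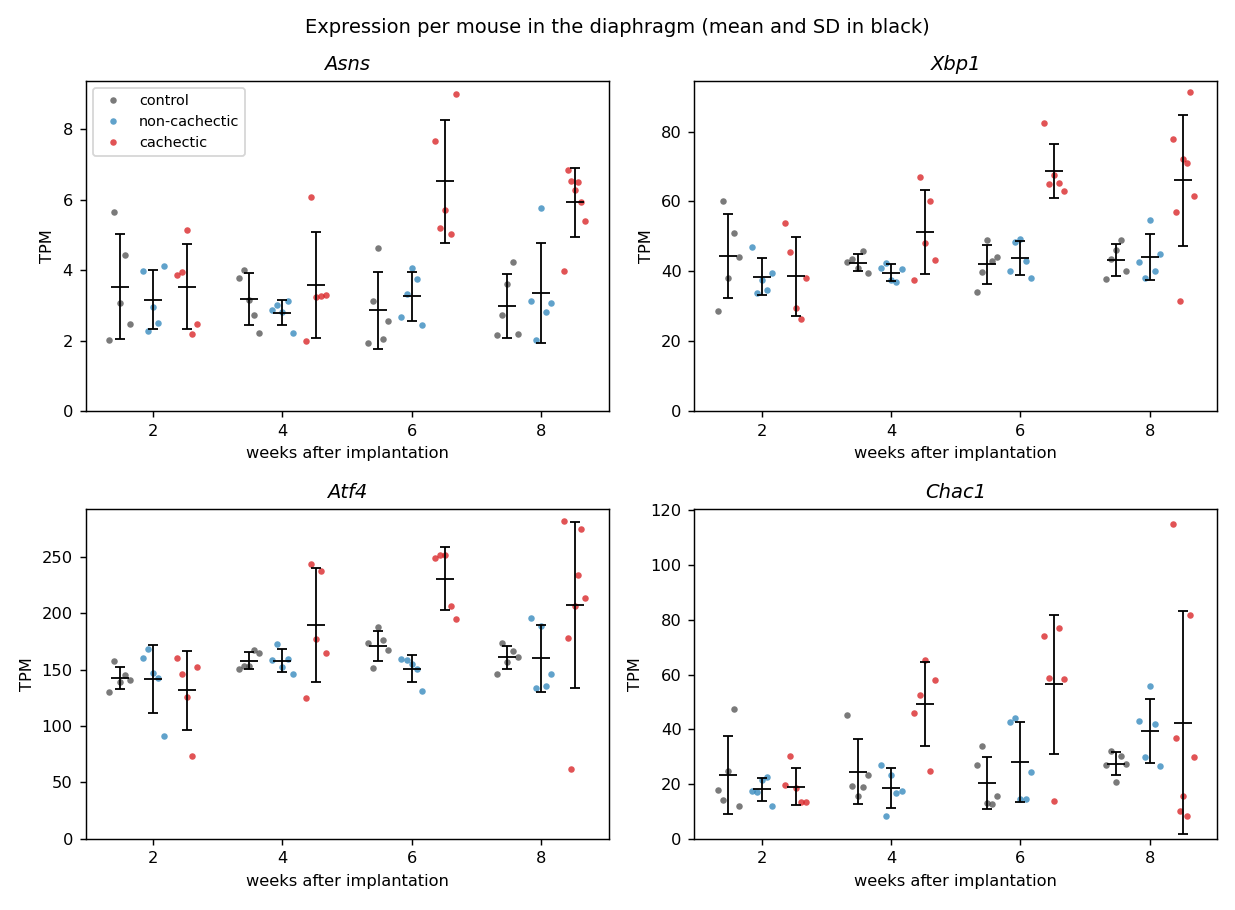
TPM of Asns, Xbp1, Atf4 and Chac1 in each mouse at 2, 4, 6 and 8 weeks after implantation, with control mice in grey, non-cachectic mice in blue and cachectic mice in red; black bars give the mean and SD of each condition. At 6 weeks every cachectic mouse lay above every control and non-cachectic mouse in Asns, Xbp1 and Atf4, and at 8 weeks 1 cachectic mouse (31.4 TPM in Xbp1 and 61.9 TPM in Atf4) lay far below the other 6 in Xbp1 and Atf4. At 6 weeks 18.9% of all genes tested had no overlap between cachectic and control mice, and 16.9% none between cachectic and non-cachectic mice.

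Asns, which codes for asparagine synthetase and is a classic ATF4 target (ENSMUSG00000029752.12, GRCm38 chromosome 6 from 7675169 to 7693254, minus strand), had 1.93, 3.11, 4.62, 2.06 and 2.57 TPM in the control mice at 6 weeks. The non-cachectic mice had 2.68, 3.31, 4.06, 3.76 and 2.45 TPM, and the cachectic mice 7.67, 5.19, 5.71, 5.04 and 9.0 TPM. All 5 cachectic mice lay above every mouse of both other groups. Of all genes tested, 18.9% had no overlap with control mice and 16.9% none with non-cachectic mice at 6 weeks, in either direction. The mean was 6.52 ± 1.74 TPM (SD, n = 5) in cachectic, 3.25 ± 0.69 TPM (SD, n = 5) in non-cachectic and 2.86 ± 1.09 TPM (SD, n = 5) in controls. Against control mice the log2 fold change of 0.98 had a standard error of 0.21 (adjusted p = 0.00181 by limma), and it was 0.81 against non-cachectic mice (adjusted p = 0.0124). Cachectic replicate 5, with the liver markers, had the highest value, and without the liver-rich libraries the log2 fold changes of Asns were 0.87 (adjusted p = 0.00600) and 0.70 (adjusted p = 0.0341). By Dunn's test, which called 0 of the 13578 genes in either comparison at 6 weeks (4433 against control and 3608 against non-cachectic mice at an unadjusted p under 0.05), neither call passed (adjusted p = 0.0687 and 0.144). The second call was also lost with median-ratio scaling (adjusted p = 0.118), with quantile normalization (adjusted p = 0.0835) and without cachectic replicate 1 (adjusted p = 0.0553).

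At 8 weeks the control mice had 2.16, 2.73, 3.59, 4.22 and 2.18 TPM of Asns and the non-cachectic mice 3.12, 2.01, 5.77, 2.82 and 3.08 TPM. The 7 cachectic mice lay between 3.97 and 6.83 TPM, with a median of 6.28 TPM, 6 of them above every control mouse and 5 above every non-cachectic mouse. The mean was 5.92 ± 0.98 TPM (SD, n = 7) in cachectic, 3.36 ± 1.42 TPM (SD, n = 5) in non-cachectic and 2.98 ± 0.91 TPM (SD, n = 5) in controls. Asns thus had a log2 fold change of 0.81 (standard error 0.19, adjusted p = 0.00211 by limma) against control and 0.71 (adjusted p = 0.00914) against non-cachectic mice. The cachectic mouse whose library held few genes had 6.54 TPM of Asns, and without the few-gene libraries the log2 fold changes were 0.79 and 0.68. The call against non-cachectic mice was lost without non-cachectic replicate 2 (adjusted p = 0.0628), with only the groups compared (adjusted p = 0.0802) and by Dunn's test (adjusted p = 0.0897).

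In the other 10 conditions the mean of Asns lay between 2.80 and 3.57 TPM, with SDs of 0.35 to 1.5 TPM, and the values of the conditions overlapped. Cachectic mice at 6 weeks had the highest mean and cachectic mice at 8 weeks the second, with overlapping values. The difference between cachectic and control mice grew by 0.88 on the log2 scale from 4 to 6 weeks (unadjusted p = 0.00447, adjusted p = 0.994 by limma) and by 0.72 from 4 to 8 weeks (adjusted p = 0.547), which did not pass the test.

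Xbp1 codes for the transcription factor that is activated when IRE1 splices its mRNA (ENSMUSG00000020484.18, GRCm38 chromosome 11 from 5520659 to 5525893, plus strand). At 6 weeks it had 34.0, 39.9, 48.9, 43.1 and 44.2 TPM in control, 40.1, 48.4, 49.3, 42.9 and 38.2 TPM in non-cachectic and 82.4, 65.0, 67.6, 65.4 and 63.1 TPM in cachectic mice. Every cachectic mouse lay above every mouse of both other groups. Groups without overlap were found in 18.9% of all genes tested against control and in 16.9% against non-cachectic mice. Means were 68.7 ± 7.85 TPM (SD, n = 5) in cachectic, 43.8 ± 4.94 TPM (SD, n = 5) in non-cachectic and 42.0 ± 5.51 TPM (SD, n = 5) in controls. Xbp1 was higher by 0.70 on the log2 scale against control (standard error 0.18, adjusted p = 0.00894 by limma) and 0.64 against non-cachectic mice (adjusted p = 0.0198). The second call was lost without cachectic replicate 1 (adjusted p = 0.0908), the mouse with the highest value, and without non-cachectic replicates 1 (adjusted p = 0.0545) or 5 (adjusted p = 0.0639), and neither call passed by Dunn's test (adjusted p = 0.0824 and 0.151), which called 0 genes of all at 6 weeks.

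At 8 weeks Xbp1 lay between 37.7 and 48.8 TPM in control mice and between 38.0 and 54.7 TPM in non-cachectic mice. The cachectic mice had 77.8, 57.0, 31.4, 72.1, 71.0, 91.2 and 61.5 TPM, and 6 of the 7 lay above every mouse of the other groups. Replicate 3, the few-gene library, lay below all of them. On the log2 scale the difference was 0.54 against control (standard error 0.16, adjusted p = 0.0176 by limma) and 0.52 against non-cachectic mice (adjusted p = 0.0258). Without cachectic replicate 3 these were 0.71 (adjusted p = 0.000230) and 0.68 (adjusted p = 0.000387). The call against control was lost without cachectic replicate 6 (adjusted p = 0.0556) or control replicate 1 (adjusted p = 0.0536), and that against non-cachectic mice without cachectic replicates 1 or 6 or non-cachectic replicates 1, 2 or 4 (adjusted p from 0.0534 to 0.0898). Neither passed with only the groups compared (adjusted p = 0.246 and 0.316) or by Dunn's test (adjusted p = 0.241 and 0.240), which at 8 weeks called 1121 genes of all against control and 607 against non-cachectic mice. In the other 10 conditions the mean of Xbp1 lay between 38.5 and 51.2 TPM, with the third highest mean in cachectic mice at 4 weeks (51.2 ± 12.1 TPM, SD, n = 5), where 3 of 5 mice lay above every control mouse.

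Asns and Xbp1 were thus 2 of the 8 members tested that were higher in cachectic than in control mice at 6 weeks and 2 of 8 at 8 weeks, and 0 were lower. Among all genes tested, 6.79% were called at 6 weeks (5.62% higher and 1.17% lower) and 14.8% at 8 weeks (6.65% higher and 8.12% lower). Against non-cachectic mice the same 2 genes were higher and 0 lower at each week, beside 5.85% of all genes at 6 weeks (4.28% upward and 1.57% downward) and 12.9% at 8 weeks (6.75% upward and 6.19% downward). The median log2 fold change of the 8 members against control was 0.49 at 6 weeks and 0.24 at 8 weeks, and that of all genes tested 0.17 and -0.09. With median-ratio scaling between libraries the median of all genes moved by -0.16 at 6 weeks and by 0.11 at 8 weeks. The number of genes higher and lower at 6 weeks then went from 763 and 159 to 467 and 545, while Asns and Xbp1 remained higher than in control mice.

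Without the few-gene libraries 4 members were higher than in control mice at 6 weeks (Asns, Xbp1, Atf4 and Chac1) and 4 at 8 weeks (Asns, Xbp1, Atf4 and Trib3). The genes called among all tested went up too, from 922 to 4233 at 6 weeks (3651 of them higher) and from 2005 to 4697 at 8 weeks (3015 higher). Without the liver-rich libraries the count was 2 at both weeks.

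**Figure D2:**
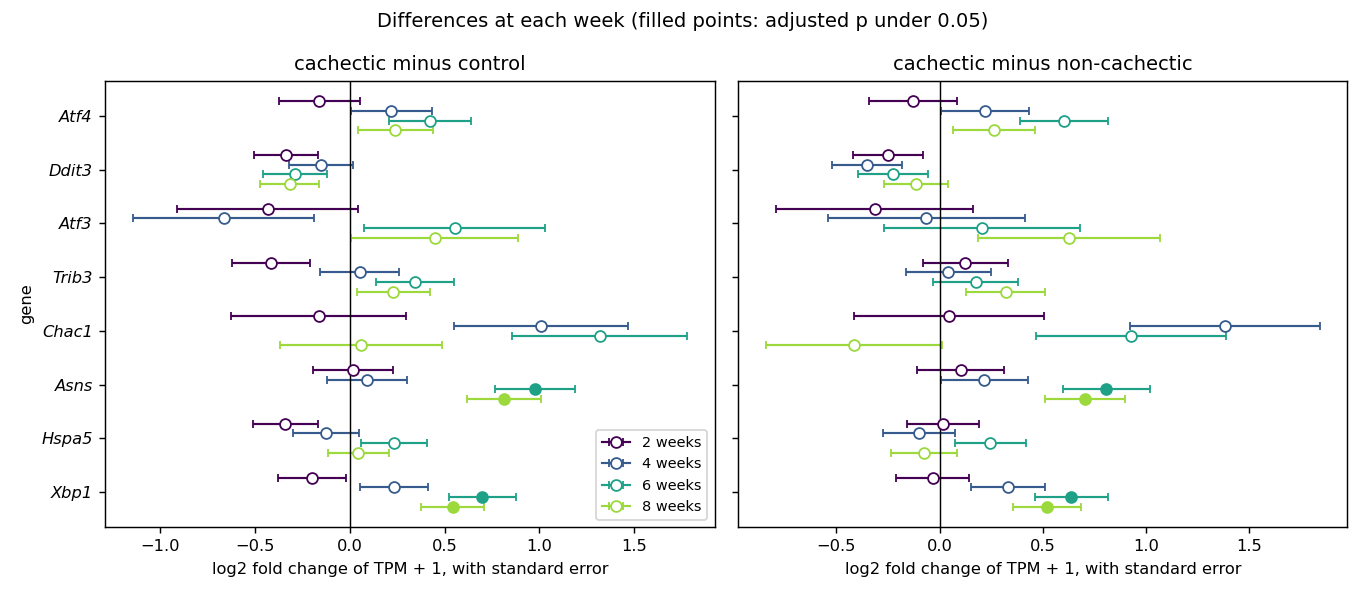
log2 fold change of TPM + 1 (points, horizontal axis) with its standard error (bars) for the 8 members tested, cachectic minus control mice at left and cachectic minus non-cachectic mice at right, at 2, 4, 6 and 8 weeks (dark to light). Filled points, with an adjusted p under 0.05, are Asns and Xbp1 at 6 and 8 weeks in both panels, and Chac1 has the largest single value, 1.38 at 4 weeks against non-cachectic mice, with an open point.

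Atf4, the transcription factor at the center of the integrated stress response (ENSMUSG00000042406.8, GRCm38 chromosome 15 from 80255184 to 80257541, plus strand), had 173, 151, 188, 176 and 167 TPM in control mice at 6 weeks. It had 160, 158, 155, 151 and 131 TPM in non-cachectic and 249, 252, 251, 206 and 194 TPM in cachectic mice. All 5 cachectic mice lay above every mouse of the other groups, which was so in 18.9% of all genes tested against control and in 16.9% against non-cachectic mice, in either direction. The log2 fold change of Atf4 was 0.42 against control (standard error 0.21, adjusted p = 0.259 by limma) and 0.60 against non-cachectic mice (adjusted p = 0.0833). Atf4 therefore was not called at 6 weeks.

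At 8 weeks the 7 cachectic mice had 282, 178, 61.9, 206, 234, 275 and 214 TPM of Atf4, and the control mice between 146 and 174 TPM. Except for replicate 3, which had the lowest value of the 62 mice, each cachectic mouse lay above every control mouse. With all mice the log2 fold change was 0.24 (adjusted p = 0.474 by limma), and it was 0.51 (adjusted p = 0.00945) without replicate 3. Against non-cachectic mice these were 0.26 (adjusted p = 0.443) and 0.53 (adjusted p = 0.00674). With median-ratio scaling Atf4 was also called higher at 8 weeks, at 0.40 (adjusted p = 0.0139) against control.

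The spread of Atf4 differed between libraries of earlier weeks too. Without the 4 few-gene libraries, 3 of which are from 2 weeks, the fold changes at 6 weeks were unchanged in size but had adjusted p-values of 0.00547 against control and 0.000161 against non-cachectic mice by limma. At 4 weeks 3 of 5 cachectic mice, with 177, 237 and 243 TPM of Atf4, lay above every control mouse and 1, with 125 TPM, lay below (log2 fold change 0.22, adjusted p = 1.00). At 2 weeks the log2 fold change was -0.16 (adjusted p = 0.519).

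Chac1 codes for an enzyme that breaks down glutathione and is raised by ATF4 (ENSMUSG00000027313.3, GRCm38 chromosome 2 from 119351229 to 119354381, plus strand). At 4 weeks the cachectic mice had 46.1, 52.6, 65.2, 24.6 and 57.9 TPM, the control mice 45.2, 19.2, 15.8, 19.1 and 23.2 TPM and the non-cachectic mice 27.1, 8.34, 23.4, 16.7 and 17.4 TPM. Of the 5 cachectic mice, 4 lay above every mouse of both other groups. This gave log2 fold changes of 1.01 (standard error 0.46) against control and 1.38 against non-cachectic mice, with unadjusted p-values of 0.0329 and 0.00407 and adjusted p-values of 0.832 and 0.462 by limma.

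At 6 weeks Chac1 had 74.1, 58.7, 13.8, 77.2 and 58.2 TPM in cachectic mice, against 12.8 to 34.0 TPM in control and 14.7 to 44.2 TPM in non-cachectic mice. Replicate 3 lay within the control range and the other 4 above it. Against control the log2 fold change of Chac1 was 1.32 (standard error 0.46, adjusted p = 0.0713 by limma), and 1.76 (adjusted p = 0.0135) without cachectic replicate 3. At 8 weeks the cachectic mice spread from 8.19 to 115 TPM, with a median of 29.8 TPM. Of these 7, 3 lay above every control mouse and 3 below every control mouse, and the log2 fold change was 0.06 (adjusted p = 0.953). The difference against control changed by -1.26 from 6 to 8 weeks (unadjusted p = 0.0498, adjusted p = 0.623), which did not pass the test.

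Chosen after the values were seen, cachectic replicates 1 and 6 at 8 weeks had the 2 highest levels of that group in Atf4 (282 and 275 TPM), Chac1 (115 and 81.7 TPM), Trib3 (4.06 and 4.94 TPM) and Xbp1 (77.8 and 91.2 TPM). In Asns the same mice had 3.97 and 5.92 TPM, of which the first was the lowest of the 7. In Hspa5 they had 104 and 122 TPM, within the control range. In Atf3 they had 13.4 and 17.9 TPM, below the 20.6 TPM of replicate 4. In Ddit3 they had 17.4 and 22.9 TPM, below the 27.8 and 26.2 TPM of replicates 4 and 5.

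**Figure D3:**
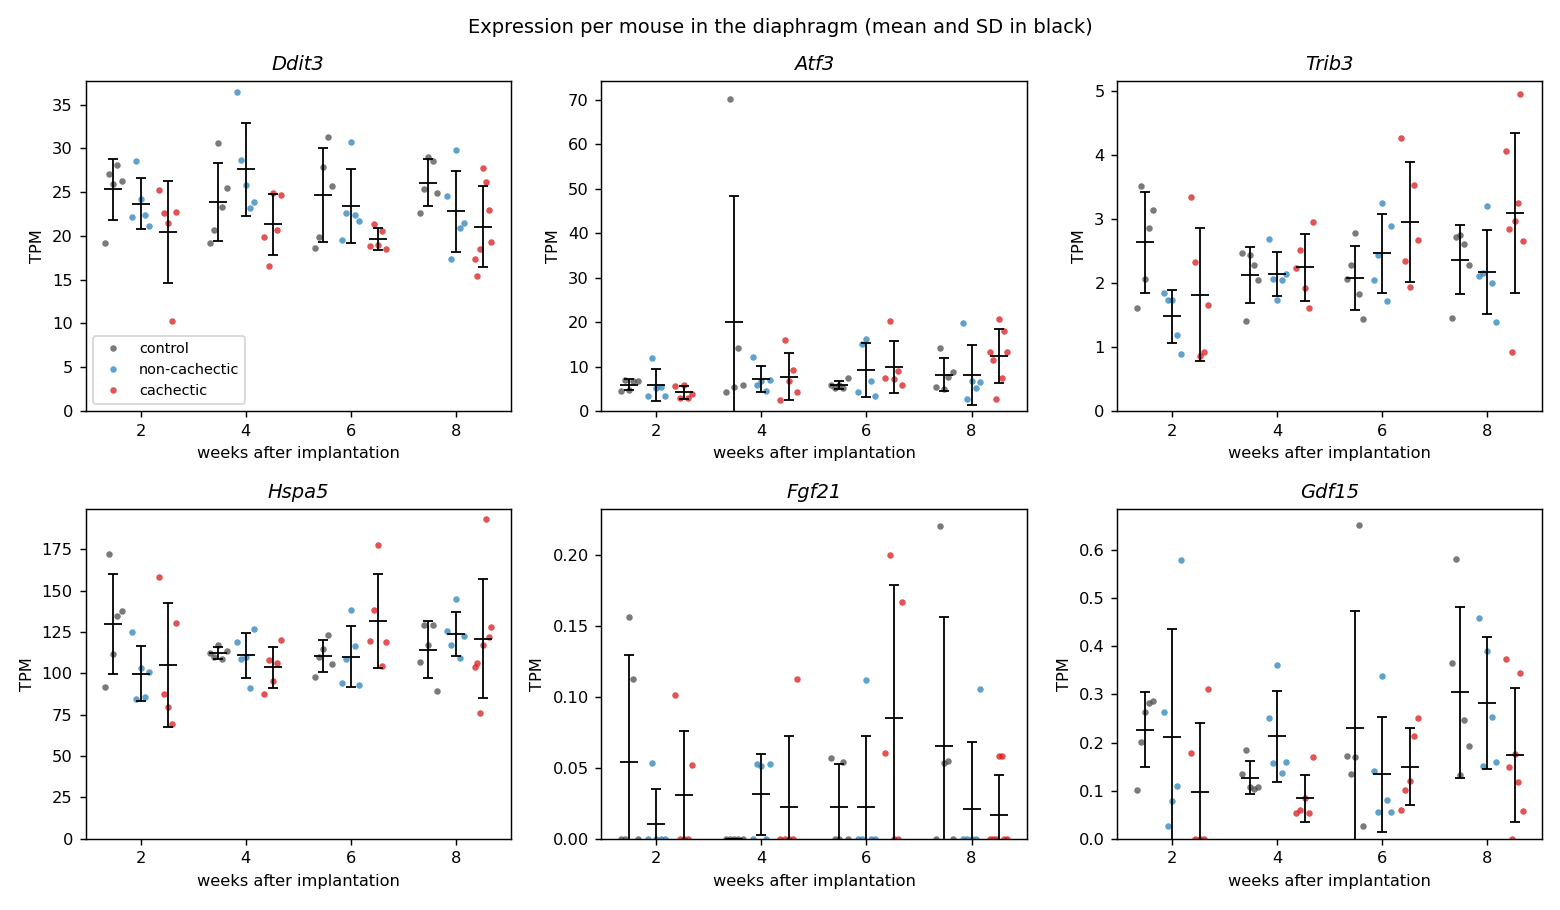
TPM of Ddit3, Atf3, Trib3, Hspa5, Fgf21 and Gdf15 in each mouse at 2, 4, 6 and 8 weeks, with control mice in grey, non-cachectic mice in blue and cachectic mice in red, and black bars for the mean and SD, which end at 0 where the SD exceeds the mean. The groups overlap at each week in each of these genes, Atf3 has 1 control mouse at 70.3 TPM at 4 weeks, and the axes of Fgf21 and Gdf15 end below 1 TPM.

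Trib3, a pseudokinase that is raised by ATF4 and CHOP and restrains AKT (chromosome 2 from 152337422 to 152344032, minus strand), had 1.46, 2.72, 2.74, 2.61 and 2.28 TPM in control mice at 8 weeks. The cachectic mice had 4.06, 2.84, 0.924, 2.97, 3.24, 4.94 and 2.66 TPM, of which 5 lay above every control mouse and replicate 3 below every one. Trib3 differed by 0.23 on the log2 scale (standard error 0.19, adjusted p = 0.479 by limma), and by 0.40 (adjusted p = 0.0430) without the few-gene libraries. At 6 weeks it was 0.34 (adjusted p = 0.360).

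Atf3, a transcription factor that many stresses induce (chromosome 1 from 191170296 to 191218039, minus strand), had between 5.11 and 7.39 TPM in control mice at 6 weeks and 7.41, 20.2, 7.32, 9.01 and 5.91 TPM in cachectic mice, with overlapping groups. For Atf3 log2 fold changes of 0.55 at 6 weeks and 0.45 at 8 weeks had standard errors of 0.48 and 0.44 (adjusted p = 0.558 and 0.559 by limma). The largest spread was in control mice at 4 weeks, with 4.25, 70.3, 5.39, 14.2 and 5.76 TPM.

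Ddit3, which codes for CHOP, the factor linked to death of cells under lasting ER stress, was the 1 of the 8 members tested whose mean was lower in cachectic than in control mice at every week. At 8 weeks it had 22.6, 25.4, 29.0, 28.6 and 24.9 TPM in control and 17.4, 15.4, 18.5, 27.8, 26.2, 22.9 and 19.3 TPM in cachectic mice, 4 of which lay below every control mouse. In Ddit3 the log2 fold change at 8 weeks was -0.32 (standard error 0.16, unadjusted p = 0.0468, adjusted p = 0.178 by limma), and -0.34, -0.15 and -0.29 at 2, 4 and 6 weeks (adjusted p = 0.0968, 1.00 and 0.340). With quantile normalization Ddit3 was called lower at 6 weeks (log2 fold change -0.49, adjusted p = 0.0412), and its value at 2 weeks was 0.15 with median-ratio scaling and 0.06 with quantile normalization (adjusted p = 0.587 and 0.814). Ddit3 has 2 gene models on chromosome 10, of which the one from 127290774 to 127296288 on the plus strand shares exon bases with Mars and Gm4189 on the other strand. Whether strand was used in counting is not given in the sources used here, so the values of Ddit3 are uncertain.

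Hspa5, the main chaperone of the ER (chromosome 2 from 34771970 to 34777547, plus strand), had 98.0, 110, 115, 123 and 106 TPM in control mice at 6 weeks and 120, 138, 177, 104 and 119 TPM in cachectic mice, with overlapping groups. Its log2 fold change at 6 weeks was 0.23 (standard error 0.17, adjusted p = 0.487 by limma) and 0.04 at 8 weeks (adjusted p = 0.897). The estimate at 8 weeks, with a standard error of 0.16, was smaller than that of Xbp1, but the difference between the 2 genes was not tested.

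Fgf21 and Gdf15, the hormone genes, did not reach 1 TPM in any mouse and were not among the genes tested. Fgf21 (chromosome 7 from 45613886 to 45615490, minus strand) was at 0 TPM in 41 of the 62 mice and had a highest value of 0.220 TPM, in a control mouse at 8 weeks. In cachectic mice it had 0.0604, 0.200, 0, 0 and 0.167 TPM at 6 weeks and was above 0 in 2 of 7 mice at 8 weeks. Gdf15 (chromosome 8 from 70629393 to 70632456, minus strand) was at 0 TPM in 4 mice, each cachectic, and had a highest value of 0.651 TPM, in a control mouse at 6 weeks. These 4 were replicates 2, 3 and 4 at 2 weeks and replicate 3 at 8 weeks, among them the 3 cachectic few-gene libraries. At 8 weeks Gdf15 had 0.174 ± 0.139 TPM (SD, n = 7) in cachectic, 0.282 ± 0.137 TPM (SD, n = 5) in non-cachectic and 0.304 ± 0.177 TPM (SD, n = 5) in controls.

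Cachectic mice were compared with control and non-cachectic mice at each week in exact two-sided permutation tests of log2(TPM + 1), 16 in all for the pair of genes. Of these, 1 had an unadjusted p under 0.05, that of Gdf15 at 4 weeks against non-cachectic mice (0.0842 ± 0.0493 and 0.213 ± 0.0940 TPM, SD, n = 5 each, exact permutation p = 0.0317), with the cachectic mice lower. In a limma fit without the filter, the lowest adjusted p of these comparisons was 0.367 for Fgf21 and 0.214 for Gdf15.

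In the other comparisons 0 members were called by limma. At 2 weeks 29.3% of all genes were called between cachectic and control mice, 0% between cachectic and non-cachectic mice (1709 genes at an unadjusted p under 0.05) and 4.43% between non-cachectic and control mice. The 3973 genes called between cachectic and control mice became 0 without the few-gene libraries, 0 without the liver-rich libraries and 0 with only the groups compared. At an unadjusted p under 0.05 there were still 2013, 915 and 1783 genes. The first of these fits kept cachectic replicates 1, 2 and 5 at 2 weeks and the second control replicates 1 and 3, so both had fewer mice. The 602 genes called between non-cachectic and control mice became 0 without the liver-rich libraries and 0 with only the groups compared, with 174 and 1206 at an unadjusted p under 0.05. In the main fit 1, 0 and 2 of the 8 members had an unadjusted p under 0.05 at 2 weeks, in the order of comparisons given first. At 4 weeks 0.0221% of all genes were called against control and 0.0295% against non-cachectic mice, and 1 and 2 members had an unadjusted p under 0.05. Between non-cachectic and control mice 0% of genes and no member was called at 4, 6 and 8 weeks, with 68, 100 and 55 genes and 0 members at an unadjusted p under 0.05. The change of the difference between cachectic and control mice from 4 to 6, 4 to 8 and 6 to 8 weeks was called in 0% of genes, with 506, 1022 and 580 genes and 1 member each at an unadjusted p under 0.05. Dunn's test called 0 of the 13578 genes, and so 0 members, in each comparison within a week at 2 and 4 weeks and between non-cachectic and control mice at each week, with 110 to 2266 genes at an unadjusted p under 0.05.

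At 2 weeks the control mice with liver markers stood apart in several members. Control replicates 2, 4 and 5 had 172, 134 and 138 TPM of Hspa5, 60.1, 51.0 and 44.0 TPM of Xbp1 and 3.51, 2.86 and 3.15 TPM of Trib3. The other 2 control mice had 91.8 and 112 TPM of Hspa5, 28.6 and 38.2 TPM of Xbp1 and 1.60 and 2.06 TPM of Trib3. The log2 fold changes of cachectic against control mice were -0.34 for Hspa5 and -0.41 for Trib3, with adjusted p-values of 0.103 and 0.0963 by limma. Without the liver-rich libraries, which left only control replicates 1 and 3, they were -0.02 for Hspa5 (adjusted p = 0.968) and -0.08 for Trib3 (adjusted p = 0.873). This fit left out no cachectic mouse of 2 weeks. Cachectic replicate 1, with 3621 TPM of liver markers, stayed in it. That mouse had the highest Hspa5 (158 TPM), Xbp1 (53.8 TPM) and Trib3 (3.34 TPM) of its group. The sign turned for Hspa5 with median-ratio scaling (0.17) and for Trib3 with quantile normalization (0.08). The part of liver RNA in these values was not tested.

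The rest of the pathway was described with 8 lists that hold 83 genes, 81 of them tested. At 6 weeks 3 of the 81 were higher and 0 lower in cachectic than in control mice, with 18 at an unadjusted p under 0.05 and a median log2 fold change of 0.27. At 8 weeks 5 were higher and 1 lower, with 17 at an unadjusted p under 0.05 and a median of 0.00. These shares, 3.70% higher at 6 weeks and 6.17% at 8 weeks, were close to the 5.62% and 6.65% of all genes.

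**Figure D4:**
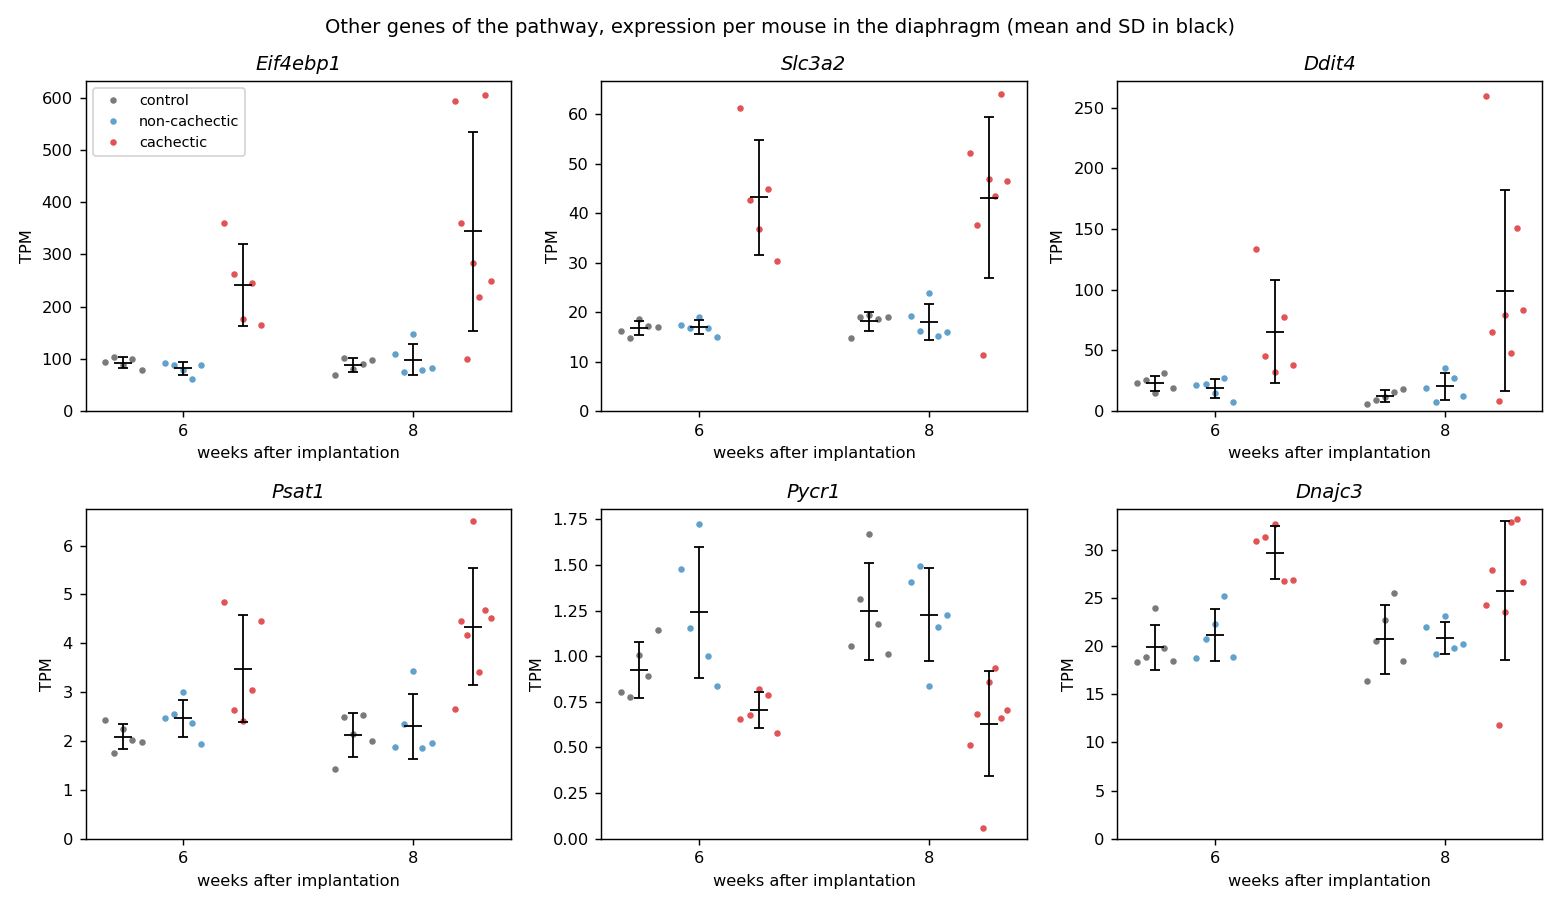
TPM of Eif4ebp1, Slc3a2, Ddit4, Psat1, Pycr1 and Dnajc3 in each mouse at 6 and 8 weeks, with control mice in grey, non-cachectic mice in blue and cachectic mice in red, and black bars for the mean and SD. Cachectic mice lay above the other groups in Eif4ebp1 and Slc3a2 at 6 weeks (5 of 5 mice) and in Ddit4, Eif4ebp1 and Slc3a2 at 8 weeks in 6 of 7 mice, and below the control mice in Pycr1 at 8 weeks. Of all genes tested, 18.9% at 6 weeks and 6.34% at 8 weeks had no overlap between cachectic and control mice, in either direction.

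Among 16 other ATF4 targets tested, 2 were higher at 6 weeks and 3 at 8 weeks. Eif4ebp1, which codes for a repressor of translation initiation, had 78.2 to 103 TPM in control mice at 6 weeks, 61.5 to 92.0 TPM in non-cachectic and 360, 263, 176, 245 and 165 TPM in cachectic mice. Its log2 fold change against control was 1.32 (standard error 0.27, adjusted p = 0.000939 by limma) at 6 weeks and 1.76 (adjusted p = 1.05e-06) at 8 weeks. Slc3a2, the heavy chain of several amino acid transporters, had 14.7 to 18.6 TPM in control, 14.9 to 19.0 TPM in non-cachectic and 61.3, 42.6, 36.8, 44.8 and 30.4 TPM in cachectic mice at 6 weeks, a log2 fold change of 1.28 (adjusted p = 0.000394). At 8 weeks it was 1.07 (adjusted p = 0.000479), and 6 of 7 cachectic mice exceeded the control range while replicate 3 lay below it.

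Ddit4, an inhibitor of mTORC1 that glucocorticoids also raise, had 6.20, 8.81, 11.8, 15.7 and 18.2 TPM in control and 259, 65.3, 8.42, 79.2, 47.7, 150.5 and 83.7 TPM in cachectic mice at 8 weeks. The difference was 2.50 on the log2 scale (standard error 0.56, adjusted p = 0.00102 by limma). Slc38a2, a transporter of neutral amino acids, was higher against non-cachectic mice at 6 weeks, with 141 ± 35.5 TPM against 72.9 ± 6.78 TPM (SD, n = 5 each, adjusted p = 0.0475 by limma).

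Of the 10 genes of serine, folate-dependent and proline synthesis, 0 were called at 6 weeks, with 1 at an unadjusted p under 0.05. At 8 weeks 1 of the 10 was higher and 1 was lower. Psat1, an enzyme of serine synthesis, rose from 2.12 ± 0.45 TPM (SD, n = 5) in control to 4.34 ± 1.2 TPM (SD, n = 7) in cachectic mice, and all 7 cachectic mice exceeded the control range (log2 fold change 0.76, adjusted p = 0.000630 by limma). Pycr1, an enzyme of proline synthesis, fell from 1.25 ± 0.26 TPM (SD, n = 5) in control to 0.631 ± 0.288 TPM (SD, n = 7) in cachectic mice, with all 7 below (log2 fold change -0.48, adjusted p = 0.00755). Every cachectic mouse was under 1 TPM in Pycr1, and replicate 3, the few-gene library, had 0.0567 TPM. Cachectic and control mice did not overlap at 8 weeks in 6.34% of all genes tested, in either direction.

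In the ER, Dnajc3, which codes for an inhibitor of PERK, was the 1 higher gene of 16 chaperones and folding enzymes at 6 weeks, at 29.7 ± 2.72 TPM in cachectic and 19.9 ± 2.35 TPM in control mice (SD, n = 5 each, log2 fold change 0.56, adjusted p = 0.0406 by limma). All 16 had a positive log2 fold change, with a median of 0.34, where the median of all genes was 0.17. The sign was not particular to these 16. It was positive in 74 of the 81 list genes, among them all 12 of ER-associated degradation and all 12 cytosolic tRNA synthetases. At 8 weeks 0 of the 16 were called, with 3 at an unadjusted p under 0.05. Of 12 genes of ER-associated degradation, 0 were called at 6 weeks (3 at an unadjusted p under 0.05) and Vimp, a membrane protein of the degradation complex, was higher at 8 weeks, with 36.1 to 59.4 TPM in cachectic and 29.9 to 35.8 TPM in control mice (log2 fold change 0.46, adjusted p = 0.00116). These groups did not overlap in Vimp, which was so in 6.34% of all genes tested.

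No gene was called against control mice at 6 or 8 weeks in 4 lists, by limma. At an unadjusted p under 0.05 there were 0 and 1 of 7 genes of the eIF2 alpha kinases and phosphatase, 3 and 1 of 12 cytosolic tRNA synthetases, 1 and 0 of 6 ER stress sensors and 0 and 1 of 3 receptors of the stress hormones. Against non-cachectic mice Eif2s1, which codes for eIF2 alpha itself, was higher at 8 weeks, with 27.5 ± 3.86 TPM (SD, n = 7) against 22.3 ± 1.33 TPM (SD, n = 5, log2 fold change 0.28, adjusted p = 0.0101).

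Over the 32 mice at 6 and 8 weeks, the genes whose log2(TPM + 1) followed that of Asns most closely were Dram1, Arl6ip1 and Gsta3, with Pearson correlations of 0.91, 0.90 and 0.88. For Xbp1 they were Slc3a2 (0.96), Eif4a1 (0.95) and Zc3h15 (0.95). These mice include the groups between which Asns and Xbp1 differ, as well as the few-gene library, so the correlations are a description.

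Markers of other cell types moved with the same comparisons. Of 9 macrophage markers, 3 were higher in cachectic than in control mice at 6 weeks and 5 at 8 weeks, and 0 were lower. Their summed level was 349 to 726 TPM per mouse in cachectic and 325 to 842 TPM in control mice at 6 weeks, and 304 to 1203 TPM and 309 to 611 TPM at 8 weeks. Of 4 neutrophil markers tested, 0 were higher at 6 weeks and 2 at 8 weeks, with sums of 17.0 to 31.9 TPM in cachectic and 4.12 to 13.2 TPM in control mice at 6 weeks, and of 9.23 to 74.8 TPM and 4.39 to 15.2 TPM at 8 weeks. Of 7 fibroblast markers, 1 was higher at 6 weeks, and 1 was higher and 4 lower at 8 weeks. Of 7 adipocyte markers 1 was higher at 8 weeks. Of 9 markers of plasma and B cells, cells in which Xbp1 is high, 0 were called at either week, and their sums overlapped between groups, from 9.09 to 1970 TPM in cachectic and 41.1 to 415 TPM in control mice at 8 weeks. Of the 12 liver and 6 mesothelial markers and the 1 of 10 pancreatic acinar markers that was tested, 0 were called against control mice. Of 10 myofiber markers, 1 was higher and 1 lower at 6 weeks and 1 was lower at 8 weeks, against control and against non-cachectic mice alike. Against non-cachectic mice 2 macrophage markers were higher at 6 weeks and 5 at 8 weeks, 2 neutrophil markers were higher at 8 weeks, 1 fibroblast marker was higher and 1 lower at 6 weeks and 3 were lower at 8 weeks, and 1 mesothelial marker was lower at 8 weeks, with 0 of the adipocyte, liver, pancreatic acinar and plasma and B cell markers called. The part of these cells in the levels of Asns and Xbp1 was not tested.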

How the data were processed

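The authors trimmed the reads, aligned them to GRCm38 (mm10) and deposited gene-level TPM values made with CLC Genomics Workbench. Which annotation release was used, whether strand counted and how multi-mapped reads were handled are not given in the sources used here, and the labels and the published methods name different TruSeq kits. The values were put on the log2(TPM + 1) scale. limma was run on the 13578 genes that 5 or more mice had at 1 TPM or above (version 3.58.1, R 4.3.3), with a mean for each of 12 conditions, a mean-dependent prior spread and Benjamini-Hochberg adjustment within each contrast. The study itself used rank tests (Kruskal-Wallis, with Dunn's test between pairs). Depth in reads is unknown. The members, the lists and the rule for named genes (all members, and list genes called at 6 or 8 weeks) were chosen with earlier results of these data known. Positions come from GENCODE M21. No 2 libraries were identical. Methods were tested on simulated normal noise. The shift added to cachectic mice at 8 weeks was larger than the fold changes of Asns and Xbp1. Few-gene and liver-rich libraries were not simulated. Alternatives were another pseudocount (0.1), no filter, other scalings, array weights, a replicate block, a liver covariate, fits with only the groups compared, Dunn's test and leaving out mice. Tools were Python 3.11.15, scipy 1.17.1 and matplotlib 3.10.9.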

Additional observations from a re-analysis of the deposited data

Results flagged for a closer look

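Of 96 sets of values (8 genes in 12 conditions), 8 held a mouse that stood apart from the rest of its condition by Dixon's criterion, where chance gives about 1 in 20, or 4.8 sets. For Atf4 these were non-cachectic replicate 5 at 2 weeks (91.5 TPM, next lowest 143 TPM), non-cachectic replicate 5 at 6 weeks (130.8 TPM, next lowest 151 TPM) and cachectic replicate 3 at 8 weeks (61.9 TPM, next lowest 178 TPM). The first and the last of these are few-gene libraries. Trib3 stood apart in cachectic replicate 3 at 8 weeks (0.924 TPM, next lowest 2.66 TPM). Ddit3 was low in cachectic replicate 4 at 2 weeks (10.3 TPM, next lowest 21.5 TPM), also a few-gene library, and in control replicate 1 at 2 weeks (19.2 TPM, next lowest 25.9 TPM). Chac1 was low in cachectic replicate 3 at 6 weeks (13.8 TPM, next lowest 58.2 TPM), and Xbp1 was high in cachectic replicate 1 at 6 weeks (82.4 TPM, next highest 67.6 TPM).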

How the results depend on the processing

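Over 120 pairs of member and comparison, 2728 of 2800 values under an alternative kept their direction (or differed in sign with neither called, in 172) and their side of the threshold, 26 lost and 46 gained a call, and 0 reversed. Most of these pairs were not called in the main fit and so had no call to lose. All 26 lost calls were of Asns or Xbp1, the only members called in the main fit. The counts of members called changed as follows, and the cause of these changes was not tested. Some of the fits had fewer mice. With array weights, whose estimation did not fully converge, 2 were called in non-cachectic against control mice at 2 weeks, beside 1767 of 13578 genes. At 4 weeks 1 (Chac1) was called against control and against non-cachectic mice, beside 1069 and 1115 of all genes. At 6 weeks these weights called 5 members against control, beside 6565 of all genes. Against non-cachectic mice they called 4 at 6 and at 8 weeks, beside 5519 and 5552 of all genes. Array weights called Asns and Xbp1 in the change from 4 to 6 and 4 to 8 weeks, beside 2195 and 1055 of all genes. The main fit called 0 genes in these changes, and 3 and 4 at 4 weeks. With only the groups compared, 4 were called at 6 weeks and 1 (Asns) at 8 weeks against control, and 0 at 8 weeks against non-cachectic mice. Of all genes this fit called 4030, 552 and 364 in the same order, where the main fit called 922, 2005 and 1757. Without the few-gene libraries 4 were called against control at 6 and at 8 weeks and 4 against non-cachectic mice at 8 weeks, where median-ratio scaling also gave 4. Of all genes, 4233, 4697 and 4525 were called without these libraries, and 2927 with median-ratio scaling. Quantile normalization gave 1 (Xbp1) against non-cachectic mice at 6 weeks and 3 against control there, with Ddit3 lower (log2 fold change -0.49, adjusted p = 0.0412). It called 1255 of all genes against non-cachectic and 1259 against control mice at 6 weeks. By Dunn's test 0 members, and 0 of all genes (4433 and 3608 at an unadjusted p under 0.05), were called at 6 weeks against either group, 1 (Asns) at 8 weeks against control and 0 against non-cachectic mice. At 8 weeks Dunn's test called 1121 of all genes against control and 607 against non-cachectic mice. With the replicate block 1 member (Asns) was called at 8 weeks against control and 1 against non-cachectic mice, in place of 2 each, and Chac1 was gained at 6 weeks against control (adjusted p = 0.0418 by limma). The block called 1730 of all genes at 8 weeks against control, 1509 against non-cachectic mice and 653 at 6 weeks against control. Of 60 pairs of same-numbered mice, 18 had deviations with a correlation over 0.1, and the correlations ran from -0.63 to 0.39. Differently numbered mice were not compared, so whether the numbers pair the mice was not settled. Leaving out each mouse gave 0 to 3 members at 2 weeks against control (3, Hspa5, Trib3 and Ddit3, all lower, without cachectic or control replicate 1), 1 to 3 at 8 weeks against control, 0 to 2 at 6 weeks against non-cachectic mice (0 without cachectic replicate 1) and 0 to 4 at 8 weeks against non-cachectic mice (0 without non-cachectic replicate 2, 4 without cachectic replicate 3). Dunn's test gives no value for changes between weeks.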
